A study of Mus musculus with 6 samples.

Results

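The 10 laminin chain genes Lama1, Lama2, Lama3, Lama4, Lama5, Lamb1, Lamb2, Lamb3, Lamc1 and Lamc3 were examined in mouse sciatic nerve. They were found by their gene symbol among the probes that are not controls, which gave 12 of 39429 probes and 10 of 30325 gene names on the array. RNA came from 3 pools of nerves of OGT_SCKO mice and 3 pools of nerves of littermate controls (Ctrl), all aged 1 month and on a background labelled C56 BL6, with 1 single-colour array per pool. By its name and the series title, OGT_SCKO is a loss of Ogt in Schwann cells, which ensheathe the axons of peripheral nerves. Ogt encodes the enzyme that attaches the sugar O-GlcNAc to nuclear and cytoplasmic proteins. The driver of the deletion, the deleted part of Ogt, the number of animals in a pool and any allele or agent shared by both groups are not given in the sources used here. The design describes the pools as independent. Each limma p-value rests on how far pools of 1 group lie apart, with a gene's own spread drawn toward that of all genes in the fit.

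Laminins are secreted trimers of an alpha, a beta and a gamma chain that self-assemble into the sheet at the core of a basal lamina. Every myelinating Schwann cell lies in such a lamina, built mainly from the products of Lama2 or Lama4 joined to those of Lamb1 and Lamc1. Loss of Lama2 causes a muscular dystrophy with defective sorting and myelination of axons in mice. Lama1 encodes the alpha chain of the earliest embryonic laminin and in adult tissues is known from meninges and kidney tubules. Lama1 supplied from a transgene can take over functions of a missing Lama2 chain in mouse muscle and nerve.

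A single 60-base probe read each chain, apart from Lama2 and Lama3 with 2 probes each. The sequences of 2 probes are shown, for a chain of the Schwann cell lamina (Lama4) and for the chain with the smallest p among those not called (Lamb2). They were taken from probes that hold an open reading frame, and the Lama1 probe is not shown. Each holds 1 reading frame with no stop codon. They are printed 5′ to 3′ from the array files, with positions on mm9 and the strand given by the order of the files' coordinates. No base is singled out, so none is in capitals. The Lama4 probe lies at chr10:38825794-38825853 on the plus strand and the Lamb2 probe lies at chr9:108392189-108392248 on the plus strand. Exon and UTR annotation of this build was not used here.
Lama4: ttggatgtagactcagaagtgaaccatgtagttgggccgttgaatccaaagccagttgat
Lamb2: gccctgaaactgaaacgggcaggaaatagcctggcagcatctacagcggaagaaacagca

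Levels are on the log2 scale, as processed signal relative to the 75th percentile of the same array, so that 0 is the level of a fairly bright probe. Brightness also depends on the probe, so the level of 1 chain says nothing of its abundance beside another. Between 59.0% and 65.2% of probes passed the scanner's background test on each array, with 0 saturated spots. Array brightness, as that percentile, ran from 2748 on the Ctrl 2 array to 6158 on the OGT_SCKO 2 array. Ogt fell in OGT_SCKO nerves, with a level of -0.97 ± 0.069, against 0.31 ± 0.18 in Ctrl nerves (SD, n = 3 each; log2 fold change -1.28, SE 0.13, limma adjusted p = 0.00118). Whether this probe lies inside the deleted part was not analysed here. All 12 listed Schwann cell markers, among them Sox10 (a Schwann cell transcription factor), were well above background on every array. So were all 12 endothelial and 12 macrophage markers, so this was not particular to Schwann cells.

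One laminin chain rose and none fell. Lama1 was measured in all 3 OGT_SCKO pools and was not well above background in any Ctrl pool, while the levels of the 8 other tested chains differed by at most 1.26-fold between the groups and none of them passed the test. Among the 9 chains tested, 1 was called higher and 0 lower, where a call is an adjusted p under 0.05 over all genes tested. Of 19059 genes tested, 11.1% were called higher and 12.1% lower, 23.2% in all. The median log2 fold change of the 9 chains was -0.07, the same to 2 decimals as the -0.07 over all genes tested. The pools of the groups did not overlap for 2 of the 9 chains, Lama1 (higher) and Lamb2 (lower). Among 19042 genes with a value on every array this held for 45.8%, made up of 20.4% with all OGT_SCKO pools above the Ctrl pools and 25.4% with all below. Lamb3 had no probe above background on any array and was not tested. Because a chain could enter the test through the group in which it is bright, as Lama1 did, the counts describe the chains tested and not all 10.

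**Figure D1:**
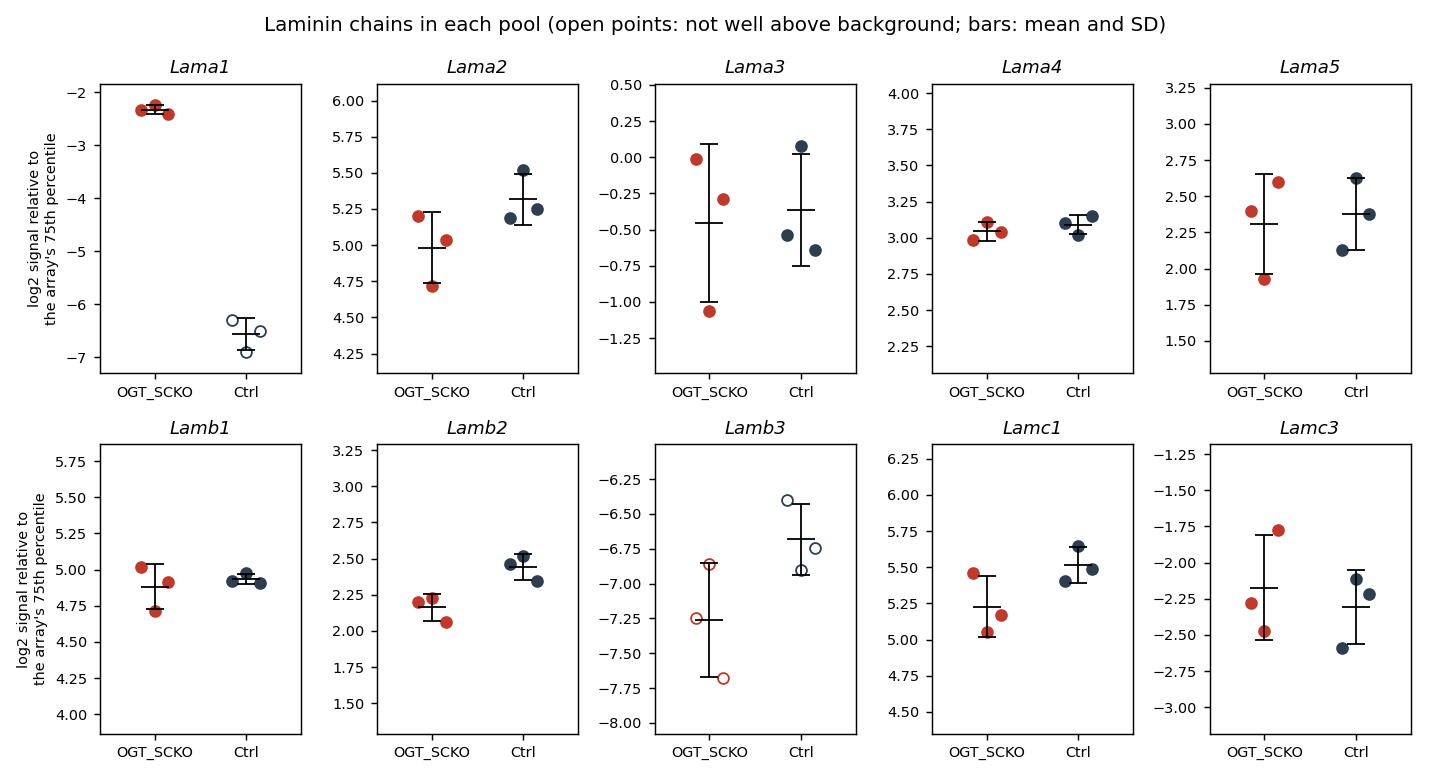
Level of each laminin chain in each pool, as log2 signal relative to the array's 75th percentile, with OGT_SCKO pools on the left and Ctrl pools on the right of each panel. Points are pools, bars the mean and SD (n = 3 pools), and open points are not well above background; each panel has its own axis range. The Lama1 signals of the groups lie over 3 log2 units apart, a gap that includes signal below background and is no measure of size. The points of Lama2, Lama3, Lama4, Lama5, Lamb1, Lamc1 and Lamc3 overlap.

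Lama1 stood at processed signals of 688, 1305 and 900 in OGT_SCKO pools 1, 2 and 3, against 53.1, 23.1 and 47.9 in Ctrl pools 1, 2 and 3. On the scaled log2 axis these were -2.33, -2.24 and -2.42 in OGT_SCKO nerves, and -6.29, -6.89 and -6.49 in Ctrl nerves. The lowest OGT_SCKO pool was far above the highest Ctrl pool, and the OGT_SCKO pools lay close together. The level averaged -2.33 ± 0.089 in OGT_SCKO and -6.56 ± 0.31 in Ctrl nerves (SD, n = 3 each). Since the Ctrl values lie at the background, only a bound applies: Lama1 was at least 6.61-fold higher in OGT_SCKO nerves. The bound sets the OGT_SCKO mean against the lowest signal that counted as well above background on each Ctrl array, or the probe's own signal where that was higher. The fitted log2 fold change, 4.23 (SE 0.17, limma adjusted p = 0.00012), includes a part that lies below background and is no measure of size.

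The Lama1 probe lies at 68171924 to 68171983 of chromosome 17 (mm9). It is the only Lama1 probe on the array, so no second probe checks it. Of the 2 protein-coding genes on either side in the RefSeq gene table, Arhgap28 alone was tested, with levels of -0.51 ± 0.45 in OGT_SCKO and -0.26 ± 0.20 in Ctrl nerves (SD, n = 3 each; log2 fold change -0.26, SE 0.24, limma adjusted p = 0.447). Ptprm, Lrrc30 and L3mbtl4 did not pass the filter on dim probes. These neighbours were chosen after the value of Lama1 was seen.

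The rise of Lama1 held in each of the 18 other settings that could test it. With slide as a block, which compares OGT_SCKO with Ctrl 2 alone because the 4 arrays of slide 1 hold Ctrl 2 and every OGT_SCKO pool, Lama1 was higher by 4.56 on the log2 scale (limma adjusted p = 0.00179). Slide 1 alone makes the same contrast of 3 OGT_SCKO pools with 1 Ctrl pool, which is assumed to vary like the OGT_SCKO pools, and gave an adjusted p of 0.0181. With normexp background correction, whose offset draws dim values together, the fold was 4.66, below the bound given above (adjusted p = 3.6e-05). Leaving out 1 pool at a time gave log2 fold changes between 4.06 and 4.36. Like the 4.56 above, these include Ctrl signal below background and are no measure of size.

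Over the 6 arrays, the genes whose profile was nearest to that of Lama1 were Pdzk1ip1, Gfap and Cldn3. Likeness was the root mean square difference between profiles, each centred on its own mean, and was 0.23, 0.33 and 0.36 log2 units for these genes. Gfap, an intermediate filament of non-myelinating and injury-responding Schwann cells, had a log2 fold change of 3.79, and Cldn3, a tight junction claudin, one of 3.60. For Pdzk1ip1 the probes disagree, with log2 fold changes of 4.37 and 0.63, and the likeness rests on the first. The Ctrl part of the Lama1 profile is background signal on all 3 arrays, so the distances describe the signals and not expression, and a likeness over 6 arrays in 2 groups mostly reflects the size of the group difference.

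The alpha chains of the Schwann cell lamina, Lama2 and Lama4, were bright in both groups. Lama2 had levels of 5.20, 4.72 and 5.03 in OGT_SCKO pools, against 5.19, 5.52 and 5.25 in Ctrl pools. The groups overlapped, with OGT_SCKO 2 the lowest and Ctrl 2 the highest pool. The log2 fold change was -0.33 (SE 0.16, limma adjusted p = 0.178), or 79.3% of the Ctrl level with a 95% confidence interval of the ratio from 0.605 to 1.04. The second Lama2 probe differed by -0.17 on the log2 scale (SE 0.11, limma adjusted p = 0.30 over 24288 probes). The size of the difference at the first probe depended on the scaling and on the slide, as described below.

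Lama4, an alpha chain without the arm that joins laminins into a network and known from vessels and nerve, was the steadiest of the alpha chains. It had levels of 2.98, 3.11 and 3.04 in OGT_SCKO pools, against 3.10, 3.02 and 3.15 in Ctrl pools. The pools of the groups interleaved. The log2 fold change was -0.04 (SE 0.10, limma adjusted p = 0.766). With this scaling, and with the spread drawn toward that of all genes, the interval of the ratio was 0.822 to 1.14. With quantile normalisation the SE was 0.12 for Lama4 and 0.089 for Lama2.

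Lama5, the broadly expressed alpha chain of mature epithelial and vascular basement membranes, varied more among pools than between groups. Its levels were 2.40, 1.93 and 2.60 in OGT_SCKO pools and 2.13, 2.63 and 2.38 in Ctrl pools (log2 fold change -0.07, SE 0.21, limma adjusted p = 0.831). The interval of the ratio was 0.671 to 1.35. Lama3, an alpha chain of the anchoring complex of skin and other epithelia, was the least steady chain. The brighter of its 2 probes had levels of -0.01, -1.06 and -0.29 in OGT_SCKO pools and -0.54, 0.08 and -0.64 in Ctrl pools (log2 fold change -0.09, SE 0.31, limma adjusted p = 0.855). The groups overlapped widely, with a ratio between 0.56 and 1.58, and the other Lama3 probe stayed at background on all arrays. The probes thus disagree on whether Lama3 RNA was detected in the nerve.

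Neither tested beta chain passed the test. Lamb1, the beta chain of the Schwann cell lamina, had levels of 5.02, 4.71 and 4.92 in OGT_SCKO pools and 4.92, 4.98 and 4.91 in Ctrl pools. The Ctrl pools lay inside the range of the OGT_SCKO pools (log2 fold change -0.05, SE 0.12, limma adjusted p = 0.766, ratio 0.795 to 1.17). Lamb2, a beta chain enriched at neuromuscular junctions, kidney glomeruli and perineurium, had levels of 2.20, 2.23 and 2.06 in OGT_SCKO pools and 2.47, 2.52 and 2.34 in Ctrl pools. All OGT_SCKO pools were below all Ctrl pools, which held in 25.4% of genes tested on all arrays. The log2 fold change of Lamb2 was -0.28 (SE 0.11), or 82.3% of the Ctrl level, and it did not pass (limma adjusted p = 0.107, and 0.0604 to 0.37 over the other settings). Permuting the pools exactly (two-sided) gave p = 0.1 for Lamb2 as for Lama1, the smallest that 3 against 3 pools allow.

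Lamb3, the beta chain that pairs with Lama3 in skin, was at background throughout. Its processed signals were 22.8, 53.1 and 23.5 in OGT_SCKO pools and 49.2, 23.0 and 40.1 in Ctrl pools. No fold is given, since both groups have only a bound.

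Of the gamma chains, Lamc1 is shared by most laminins and is required for laminin deposition by Schwann cells in mice. It had levels of 5.46, 5.05 and 5.17 in OGT_SCKO pools and 5.40, 5.65 and 5.48 in Ctrl pools. OGT_SCKO 1 lay among the Ctrl pools and the other OGT_SCKO pools below them (log2 fold change -0.29, SE 0.14, limma adjusted p = 0.184, ratio 0.648 to 1.04). Lamc3, a gamma chain with a narrow expression in the body, was dim but measured on every array. Its levels were -2.28, -2.48 and -1.77 in OGT_SCKO pools and -2.59, -2.11 and -2.22 in Ctrl pools, which overlapped (log2 fold change 0.13, SE 0.22, limma adjusted p = 0.68, ratio 0.764 to 1.57).

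**Figure D2:**
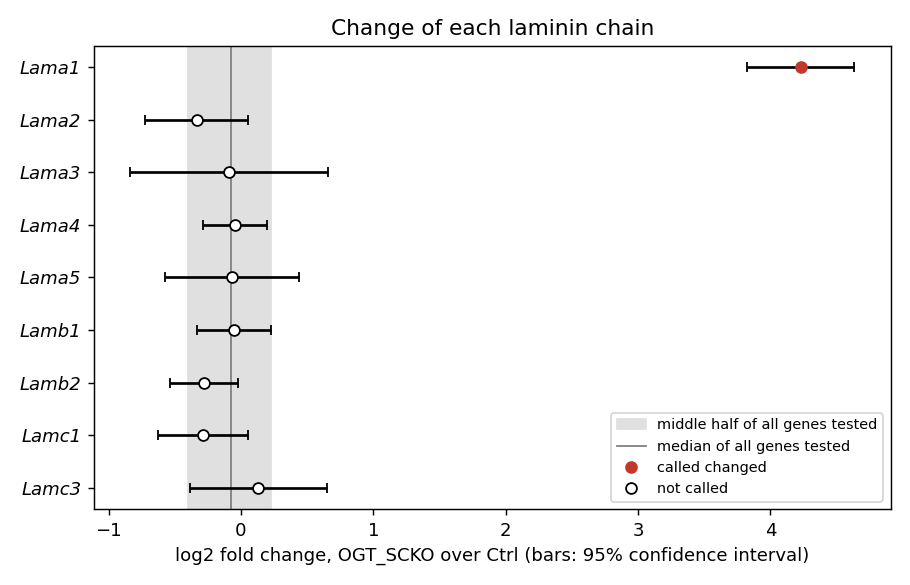
Log2 fold change of each of the 9 tested chains, OGT_SCKO over Ctrl, with its 95% confidence interval from the limma fit. The filled point was called changed, and the grey band runs from the lower to the upper quartile of all 19059 genes, -0.40 to 0.22. Lama1 lies at 4.23, with Ctrl values at background, and the 8 other chains lie between -0.33 and 0.13.

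The small differences of the brightest chains, Lama2, Lamb1 and Lamc1, depended on the scaling of the arrays. OGT_SCKO 2, the array with the highest 75th percentile, held the lowest value of all 6 pools for 5 of the 8 chains other than Lama1, and Ctrl 2, the array with the lowest percentile, held the highest value for 5 of them. With quantile normalisation OGT_SCKO 2 was lowest for 2 of these chains, Lama3 and Lama5. The share of all genes with such a pattern was not counted here, and the part of array brightness in it was not tested. Lama2 then had a log2 fold change of -0.07 and Lamc1 one of 0.0080, against -0.33 and -0.29 with the 75th percentile. Lamb1 was 0.18 with quantile normalisation and -0.05 with the 75th percentile, and Lama4 0.044 and -0.04, with neither passing the test. Lamb2 was -0.23 with quantile normalisation and -0.28 with the 75th percentile. With slide as a block, which rests on Ctrl 2 alone, Lama2 was -0.53, Lama3 -0.54, Lamc1 -0.42, Lamb2 -0.36 and Lama5 -0.32. In the same setting Lamb1 was -0.09, Lamc3 -0.064 and Lama4 0.024. The part of the slide in these values was not tested.

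**Figure D3:**
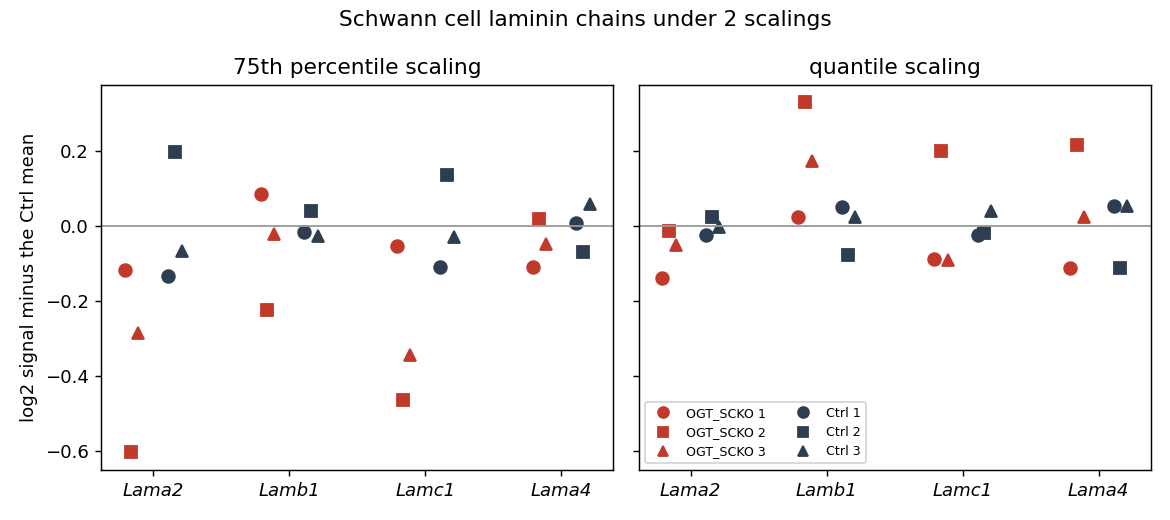
Levels of the Schwann cell lamina chains Lama2, Lamb1, Lamc1 and Lama4 in each pool, as log2 signal minus the mean of the Ctrl pools, with 75th percentile scaling on the left and quantile scaling on the right. The low values of OGT_SCKO 2 (squares) for Lama2 and Lamc1, -0.60 and -0.46 on the left, are -0.01 and 0.20 on the right.

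Whether chains of a class changed unequally was compared as the difference of their levels within each array, over 12 pairs. The 4 pairs with Lama1 have no measured Ctrl value and restate its call, so no value is given for them. Among the 8 other pairs, the pools did not overlap for Lama2 minus Lama5, which differed by -0.26 between the groups, and by -0.04 with quantile normalisation. Pools did not overlap for 45.8% of single genes, and the share over all pairs of genes was not counted here. The exact permutation test gave p = 0.1 for Lama2 minus Lama5, the smallest possible, and 0.24 adjusted over the 12 pairs. Lamb1 minus Lamb2 differed by 0.23 and Lamc1 minus Lamc3 by -0.42, with overlapping pools.

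**Figure D4:**
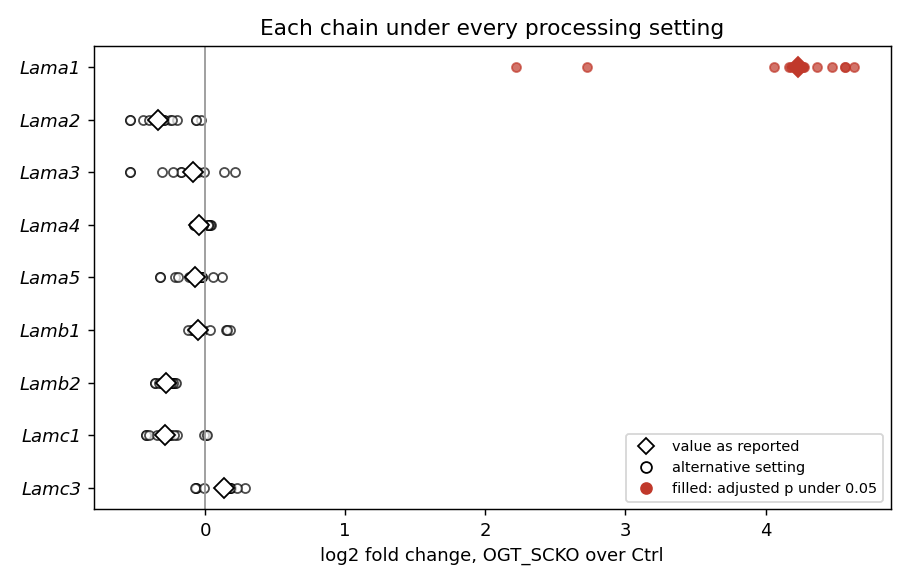
Log2 fold change of each tested chain, OGT_SCKO over Ctrl, under the reported setting (diamonds) and each alternative (circles), filled where the adjusted p was under 0.05. The Ctrl values of Lama1 lie at background, so its fold changes are no measure of size. Lama1 was called in every setting that tested it, between 2.22 and 4.63, and no other chain was called in any.

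The other cells of a nerve also make laminins. Of the markers of Schwann cells and these other cells that passed the test, most were lower in OGT_SCKO nerves. Of 88 tested markers in 9 lists (for Schwann cells, endothelium, perineurium, fibroblasts, adipocytes, mural cells, macrophages, skeletal muscle and epithelium), 3 were higher and 23 lower, against 11.1% higher and 12.1% lower among all genes. No list had a median log2 fold change above 0 with 75th percentile scaling, while the macrophage median was -0.03 with that scaling and 0.09 with quantile normalisation. Of 10 mural markers 2 were higher and 1 lower, and of 12 macrophage markers 1 was higher and 0 lower. Among 10 fibroblast markers 3 were lower, and among 4 tested epithelial markers 2, with 0 higher in either list. In these whole nerves, fewer cells of a type and less RNA per cell cannot be told apart. For the 9 tested adipocyte markers, 5 of them lower, the summed level relative to the 75th percentile was 0.444 to 2.58 in OGT_SCKO and 3.64 to 20.2 in Ctrl nerves. Of the called ones, Cidec and Adipoq were above background in 1 OGT_SCKO pool and Retn and Car3 in 2, so these entered the test through Ctrl nerves. With the filter on all 6 arrays 2 of 4 tested were lower, and with no filter on dim probes 1 of 10. Cfd, not called, weighs most in the Ctrl sum. Cidec, Retn, Car3 and Cfd were named after their values were seen. None of the adipocyte markers was called without Ctrl 2, without Ctrl 3 or with slide as a block, and 8 were lower with normexp. The range for 9 skeletal muscle markers, 5 lower, was 2.38 to 4.08 in OGT_SCKO and 5.49 to 6.75 in Ctrl nerves, and 2 were lower without OGT_SCKO 3 or with slide as a block. For 10 perineurial markers, 3 lower, it was 67.0 to 98.6 in OGT_SCKO and 101 to 132 in Ctrl nerves, with Cldn1 not called and 1 marker lower without OGT_SCKO 3. With mean log2 levels of 5.74 and 5.07 in Ctrl nerves, Cldn19 and Itgb4 weigh most in this sum, and neither was called. Both were named after their values were seen. The 12 endothelial markers, 2 lower, ranged from 25.2 to 31.6 in OGT_SCKO and 37.2 to 41.4 in Ctrl nerves, with Pecam1 not called and 0 markers lower without any 1 Ctrl pool. For 12 Schwann cell markers, 2 lower, the range was 435 to 705 in OGT_SCKO and 687 to 897 in Ctrl nerves. Their median log2 fold change was -0.42 with the 75th percentile and -0.07 with quantile normalisation, where 1 was lower, and none was called without OGT_SCKO 3 or with slide as a block. The part of these shifts in the values of Lama2, Lama5, Lamb2 and Lamc1 was not tested.

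Other proteins of the basal lamina moved in both directions. Of 12 tested partners, 2 rose, 3 fell and 7 did not pass, with a median log2 fold change of -0.28, where 23.2% of all genes were called. With quantile normalisation or the deposited values 3 were higher and 1 lower, and without Ctrl 2 or Ctrl 3 none was lower. Over all 19059 genes, 2575 were higher and 2346 lower with quantile normalisation, and 2522 and 2317 with the deposited values. Without Ctrl 2 the genes called lower were 1267 and without Ctrl 3 981, against 2297 in the main fit. Col18a1, a basement membrane collagen that carries heparan sulfate, had levels of 1.79 ± 0.18 in OGT_SCKO and 0.97 ± 0.12 in Ctrl nerves (SD, n = 3 each; log2 fold change 0.82, SE 0.13, limma adjusted p = 0.00741). Col4a5, a type IV collagen chain, was higher by 0.54 on the log2 scale (SE 0.10, limma adjusted p = 0.0127). Agrn, a heparan sulfate proteoglycan that binds the laminin coiled coil, fell by 0.50 on the log2 scale (SE 0.10, limma adjusted p = 0.0149), and its second probe differed by -0.78 (SE 0.26, adjusted p = 0.0734). Col4a1, one of the main type IV collagen chains, fell by 0.51 (SE 0.13, limma adjusted p = 0.0334), and its call ended with quantile normalisation (adjusted p = 0.0998). Nid1, which links laminin to type IV collagen by binding the gamma chain, differed by 0.18 and the perlecan gene Hspg2 by -0.09 on the log2 scale, and neither passed. Nid1 and Hspg2 were named after their values were seen. Of the 5 called partners Col18a1 alone passed with slide as a block.

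Among laminin receptors 1 gene rose and 1 fell. Of 20 tested genes for integrin chains, dystroglycan and its complex, 18 did not pass (median log2 fold change -0.15), where 23.2% of all genes were called. Dtna, dystrobrevin alpha of the dystrophin complex, was higher by 0.75 on the log2 scale (SE 0.11, limma adjusted p = 0.00459), and Sgce, epsilon-sarcoglycan, fell by 0.45 (SE 0.10, limma adjusted p = 0.022). Neither passed once slide was a block (adjusted p = 0.0513 and 0.129), and the call of Sgce also ended with quantile normalisation (0.0647).

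Dystroglycan binds laminin through a glycan that a chain of enzymes builds on it. Of 16 tested genes for this glycan, 5 fell, none rose and 11 did not pass (median log2 fold change -0.10). Among all genes 12.1% were lower and 11.1% higher. With normexp, 6 fell and 2 rose, where 2467 of 19059 genes were lower and 2663 higher. Pomgnt2, which adds N-acetylglucosamine to the first mannose, had levels of -1.38 ± 0.23 in OGT_SCKO and 0.10 ± 0.17 in Ctrl nerves (SD, n = 3 each; log2 fold change -1.49, SE 0.16, limma adjusted p = 0.00155). Pomt2, a subunit of the enzyme that attaches that mannose, fell by 0.96 (SE 0.12, limma adjusted p = 0.00257), and Pomk, the kinase of the same glycan, by 0.58 (SE 0.10, limma adjusted p = 0.00885). Dpm3, a subunit of the synthase of the mannose donor, fell by 0.81 (SE 0.20, limma adjusted p = 0.0305). With slide as a block, Pomgnt2 and Pomt2 passed and Pomk and Dpm3 did not (adjusted p = 0.107 and 0.084).

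Netrins are secreted or membrane-anchored proteins that carry laminin-type domains. Of 5 tested netrin genes 2 fell and 3 did not pass, where 12.1% of all genes were lower. Ntn5 fell by 1.52 on the log2 scale (SE 0.12, limma adjusted p = 0.000593), and Ntng2, above background in 1 of 3 OGT_SCKO pools, by 1.03 (SE 0.25, limma adjusted p = 0.0312). The call of Ntng2 ended with slide as a block (adjusted p = 0.192). Within slide 1 alone, with 3 OGT_SCKO pools and 1 Ctrl pool, none of the called partner, receptor, glycosylation and netrin genes named above passed (adjusted p 0.0566 to 0.296), and the lone Ctrl pool is assumed to vary like the OGT_SCKO pools.

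**Figure D5:**
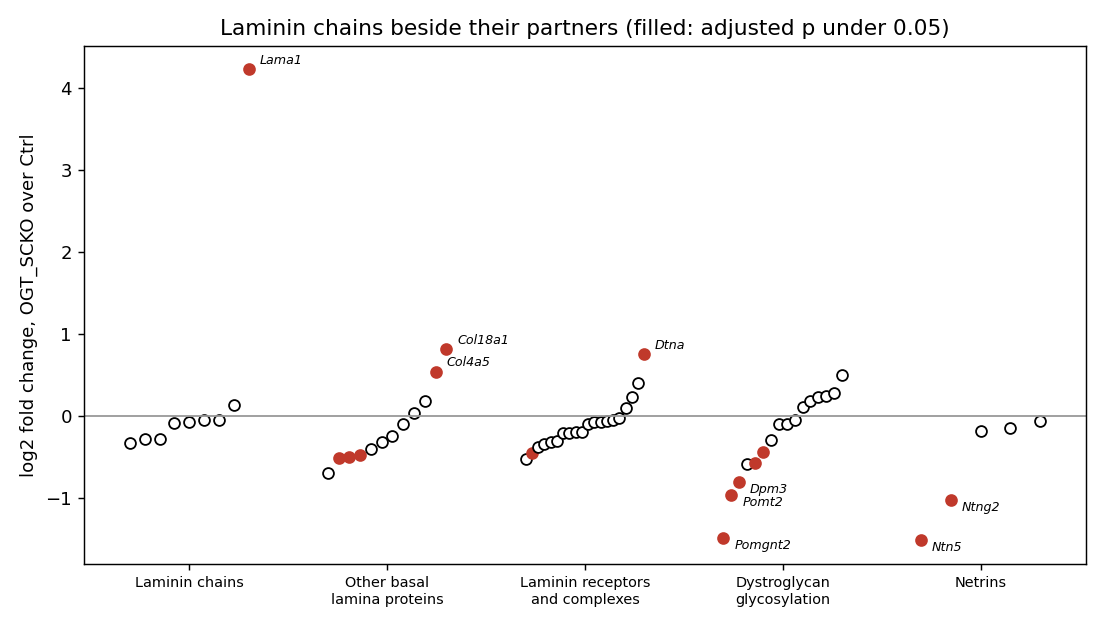
Log2 fold changes, OGT_SCKO over Ctrl, of the tested laminin chains, other basal lamina proteins, laminin receptors and complexes, dystroglycan glycosylation genes and netrins. Each point is a gene, filled where the adjusted p was under 0.05. Lama1 at 4.23, with Ctrl values at background, lies above every other gene shown.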

How the data were processed

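Each of 6 arrays was an Agilent scanner file. Per the submitters' processing notes, Agilent Feature Extraction 11.5.1.1 was used. The deposited spot intensity values were, per the file headers, spatially and multiplicatively detrended red-channel signals, with local background correction switched off and surrogates for very low values. Other deposited flags of the file headers mark spots well above background, saturated or outlying. The authors' deposited log2 table has the same distribution in each column. Its scale and order fit quantile normalised log2 signals (Pearson r 0.996 to 1.00 per array over probes), and its centring steps are not given in the sources used here. It served as an alternative.

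Control and outlier spots were left out and spots of a probe averaged. A probe was kept if every array of 1 or both groups had it well above background (24288 probes), and the brightest kept probe stood for a gene. RefSeq accessions (GRCm38.p6) named 27655 probes. The comparison used limma 3.58.1 (R 4.3.3) without covariates and Benjamini-Hochberg adjustment over all genes. The fit was tested on simulated data. Precision is limited by the number of arrays.

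The chains and lists were chosen with earlier results of these data known. Named genes are all chains, up to 4 called genes per partner list with the smallest p, the 3 nearest profiles to a called chain, Ogt and defining markers. Alternatives covered scaling, normexp (offset 50), the filter, probe choice, deposited values, slide, replicate number, variance model and left-out pools; a floor at the lowest value above background was chosen after seeing the data. Replicate numbers were not treated as pairs in the main fit.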

Additional observations from a re-analysis of the deposited data

How the results depend on the processing

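Lama1 kept its direction and its call in the 18 alternatives that could test it, and with the filter on all 6 arrays it was not tested, so 0 chains were called higher there. The floor at the lowest value above background gave a log2 fold change of 2.72 for Lama1 (limma adjusted p = 0.000396). No other chain was called in any of 152 repeats (lowest adjusted p = 0.0598). The count of genes changed was 4421, and 2627 with no filter on dim probes, 1212 with slide as a fixed block, 401 on slide 1 alone, 1466 with the replicate block and 1975 to 5522 without single pools. The median log2 fold change of the chains was -0.07, and 0.0080 with quantile normalisation, 0.0114 with the deposited values, -0.32 with slide as a block or on slide 1 alone, and -0.18 to 0.033 without single pools. Signs turned in 19 of 170 repeats of single chains, all of them not called. With quantile normalisation, normexp and the deposited values Lama4 had 0.044, 0.030 and 0.039 and Lamb1 0.18, 0.15 and 0.16, and with quantile normalisation and the deposited values Lamc1 had 0.0080 and 0.0114. With slide as a block or on slide 1 alone Lama4 had 0.024 and Lamc3 -0.064. Without single pools Lama3 ran from -0.31 to 0.21, Lama5 from -0.22 to 0.12, Lamb1 from -0.12 to 0.033 and Lamc3 from -0.069 to 0.28, turning without OGT_SCKO 2 (Lama3, Lama5, Lamb1), OGT_SCKO 3 (Lamc3), Ctrl 1 (Lamc3) or Ctrl 2 (Lama3, Lama5). The cause was not tested. The correlations of deviations of pools with the same number were -0.27, -0.53 and 0.06. With so few pools they cannot settle whether the numbers pair the pools. With the replicate block Lama1 passed (limma adjusted p = 0.00796) and no other chain did. Pomgnt2, Pomt2 and Ntn5 were the named partner genes that passed in that setting. Some calls among partners ended when 1 pool was left out. The call of Col4a1 ended without any of OGT_SCKO 1, OGT_SCKO 2, OGT_SCKO 3, Ctrl 2 or Ctrl 3. Those of Dpm3, Sgce and Ntng2 ended without OGT_SCKO 3 or any Ctrl pool (limma adjusted p 0.0636 to 0.108), and Agrn likewise (0.0512 to 0.0712). Col4a5 ended without OGT_SCKO 3 or Ctrl 1 (0.0621 and 0.0542). All genes called also fell, to 1975 without OGT_SCKO 3 and to 2447, 2546 and 2092 without Ctrl 1, Ctrl 2 and Ctrl 3. The log2 fold changes kept their sign, with Agrn from -0.52 to -0.46, Sgce from -0.48 to -0.42 and Col4a1 from -0.60 to -0.43. Dpm3 ran from -0.99 to -0.65, Ntng2 from -1.22 to -0.75 and Col4a5 from 0.48 to 0.58. Depth in the sense of signal over background limits Lama1 in Ctrl and Lamb3 in both groups to bounds.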
